A study of Homo sapiens with 4 samples.

Results

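Fatty acid synthesis and activation are represented here by 9 enzyme genes, FASN, ACACA, ACACB, ACLY, ACSS2, ACSL1, ACSL3, GPAM and ME1, and the question was where the binding peaks of ATOH8 and TCF3 lay around them. The genes were chosen by name, 9 of the 19974 protein-coding genes that RefSeq (GRCh38.p14) places on chromosomes 1 to 22 and X, and all 9 were found there. A peak was assigned to a gene when its midpoint lay inside the gene or within 50 kb of either end. The data were ChIP-seq, sequencing of DNA recovered with a chromatin-bound protein, from the established human prostate cancer cell line DU145. Flag-tagged ATOH8 and Myc-tagged TCF3, a pair of basic helix-loop-helix (bHLH) transcription factors, were each immunoprecipitated in 1 library with 1 input library, after 10 min in 1% formaldehyde. The labels do not say how the tagged proteins were expressed. With no replicate library, no peak below has an error estimate and no difference between the factors could be tested against replicate spread.

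De novo lipogenesis makes fatty acids from acetyl-CoA. Cytosolic acetyl-CoA comes from citrate or acetate, is carboxylated to malonyl-CoA, and is then built into palmitate at the expense of NADPH. Free fatty acids must be joined to coenzyme A before they can be desaturated, elongated, oxidised or esterified to glycerol, and many prostate tumours are known for high activity of this pathway. Most of these genes are known targets of the SREBP transcription factors. bHLH dimers bind a class of short sequences called E-boxes, written CANNTG where N is any base.

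ATOH8 had 3 peaks, at 3 of 9 genes (ME1, ACSS2 and FASN), where 43.6% of all protein-coding genes had one in the same kind of window. TCF3 had 8 peaks, at 6 of 9 (FASN, ACACA, ACACB, ACLY, ACSL1 and ACSL3), where 53.7% of all protein-coding genes had one. The TCF3 list was the longer, with 11390 peaks against 4997. With only as many of its highest-scored peaks as there were ATOH8 peaks, TCF3 was listed at 1 of 9 genes (FASN). The share of all protein-coding genes at that setting was not counted, so the fall cannot be read as a result about the 9 genes. ME1 carried the highest ATOH8 score of the group, across its transcription start. The FASN window held 3 TCF3 peaks, with the highest TCF3 scores. Those scored 164 and 133 lay inside the neighbouring genes GPS1 and RAC3, and the one scored 95 lay at FASN itself. No ATOH8 peak overlapped a TCF3 peak (15.9% of all protein-coding genes had an overlapping pair), and GPAM had neither factor (30.8%).

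The promoters that a peak reached are shown first, because they are the stretches of these genes for which both a peak and a sequence were at hand. RefSeq promoter windows, from 250 bases before a start to 50 after it, were matched for 8 of the 9 genes (17 windows, several genes having more than 1 start). The entry not matched was FASN. An ATOH8 peak shared at least 1 base with a window of 1 gene (background 16.6% of the 15812 protein-coding genes with a window), and a TCF3 peak with a window of 3 genes (background 16.2%). The sequences below read 5′ to 3′ along the gene's strand (GRCh38.p14), with every E-box CANNTG in capitals, and GPAM is added as the gene without a peak.
ME1, chr6:83431002-83431301, minus strand, wholly inside an ATOH8 peak: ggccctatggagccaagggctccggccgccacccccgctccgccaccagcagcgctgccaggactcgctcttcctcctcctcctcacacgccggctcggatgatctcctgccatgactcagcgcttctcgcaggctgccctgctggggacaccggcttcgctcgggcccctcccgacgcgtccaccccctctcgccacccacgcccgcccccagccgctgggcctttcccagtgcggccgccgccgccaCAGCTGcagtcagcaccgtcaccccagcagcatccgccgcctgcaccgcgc
ACSL1, chr4:184825919-184826218, minus strand, wholly inside a TCF3 peak: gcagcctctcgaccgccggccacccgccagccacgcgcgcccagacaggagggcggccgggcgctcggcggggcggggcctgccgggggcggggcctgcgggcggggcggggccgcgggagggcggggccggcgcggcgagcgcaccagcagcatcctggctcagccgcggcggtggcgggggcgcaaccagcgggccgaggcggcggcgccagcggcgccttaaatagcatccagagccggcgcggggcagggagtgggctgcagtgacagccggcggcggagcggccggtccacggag
ACSL3, chr2:222860786-222861085, plus strand, with 11 bases inside a TCF3 peak: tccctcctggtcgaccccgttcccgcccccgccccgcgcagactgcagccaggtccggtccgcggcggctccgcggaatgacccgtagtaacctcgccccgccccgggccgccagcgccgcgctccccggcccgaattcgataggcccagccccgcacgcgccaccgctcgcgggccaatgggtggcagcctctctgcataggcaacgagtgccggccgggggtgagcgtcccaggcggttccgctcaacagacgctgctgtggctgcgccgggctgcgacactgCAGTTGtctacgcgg
ACACA, chr17:37359047-37359346, minus strand, with 47 bases inside a TCF3 peak: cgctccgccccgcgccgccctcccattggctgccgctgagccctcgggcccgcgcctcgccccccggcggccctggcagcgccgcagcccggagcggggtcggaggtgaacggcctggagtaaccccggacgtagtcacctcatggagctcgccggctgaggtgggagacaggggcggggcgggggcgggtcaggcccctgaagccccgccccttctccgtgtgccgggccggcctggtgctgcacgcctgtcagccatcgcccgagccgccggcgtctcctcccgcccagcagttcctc
GPAM, chr10:112183716-112184015, minus strand, no peak: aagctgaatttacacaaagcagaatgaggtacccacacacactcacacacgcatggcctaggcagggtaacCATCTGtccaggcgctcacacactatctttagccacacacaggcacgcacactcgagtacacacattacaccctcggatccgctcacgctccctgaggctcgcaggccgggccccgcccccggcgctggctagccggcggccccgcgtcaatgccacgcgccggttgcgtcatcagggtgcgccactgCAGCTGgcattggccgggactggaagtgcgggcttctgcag

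The ME1 window held 1 E-box, CAGCTG, whose first base is 1 base before the annotated start. CAGCTG, which reads the same on both strands, was found in 18.0% of all 34961 promoter windows and in 22.8% of the 3793 windows reached by an ATOH8 peak. The GPAM window held the same letters, with their first base 10 bases into the transcript, and a second E-box, CATCTG, 179 bases before the start. The ACSL3 window held CAGTTG, 36 bases into the transcript and at the edge of the peak, which begins 39 bp downstream of the start. The ACSL1 and ACACA windows held no E-box, like 31.3% of all windows. Only windows were read, which cover 300 bases of the 1020 bp peak at ACSL1 and 47 of 384 bp at ACACA. At ACSL3 they cover 11 of 656 bp, and at ME1 300 of 1060 bp. The rest of each peak was not searched, so a window without an E-box does not mean a peak without one.

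Of the 17 windows, 11 held some E-box, against 68.7% of all windows, and 62.9% and 56.2% of windows reached by an ATOH8 or a TCF3 peak. Neither CACGTG nor CATATG was found in any of the 17, and they occurred in 7.27% and 3.02% of all windows. CAGGTG, searched on both strands, was in 3 windows of ACACA and ACSL1, none of them in a peak, against 20.6% of all windows. The sterol element TCACNCCAC, the kind of sequence SREBPs bind, was searched on both strands and was found in 1 window, at an internal start of ACSL1 that no peak reached, against 1.13% of all windows. The CCAAT box, CCAAT on either strand, was in 9 of 17 windows (34.6% of all), and the GC box GGGCGG in 12 of 17 (45.0% of all). By gene, the CCAAT box was found in 7 of 8 and the GC box in 8 of 8. Shares by gene were not counted over all genes. Windows of the same gene are not independent, and those of ACLY overlap. The windows reached by a peak were rich in G and C, at a median of 70.7% for ATOH8 and 71.0% for TCF3 against 58.7% for all windows. The ME1 window had 73.7%, ACSL1 82.3%, ACSL3 74.0%, ACACA 77.3% and GPAM 63.0%. These matches describe letters, not binding sites, and the part of base composition in the peaks was not tested.

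**Figure D1:**
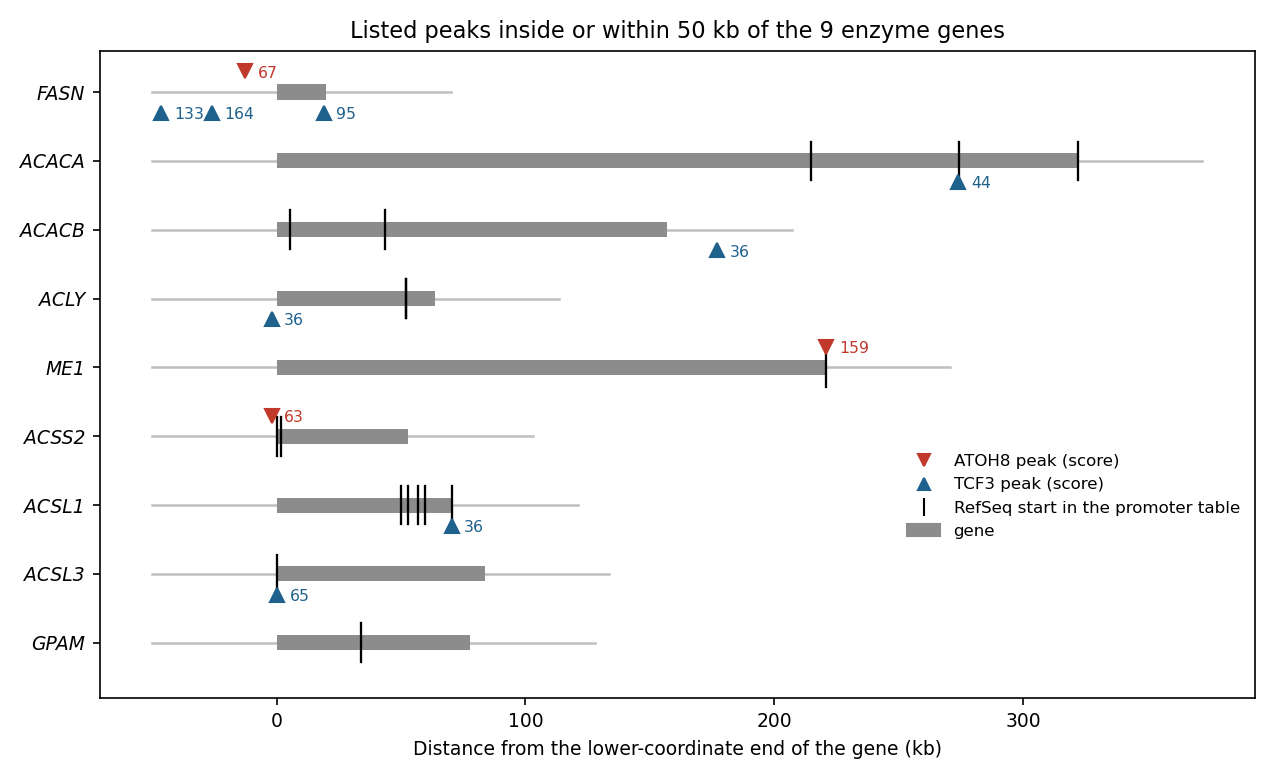
Positions of the 3 ATOH8 peaks and 8 TCF3 peaks (triangles, with the authors' score) relative to each of the 9 genes, in kb from the gene's lower-coordinate end. Grey bars are genes, thin lines their windows of 50 kb on each side, and black ticks the RefSeq starts of the promoter table, which has no entry for FASN. Among genes with ticks, peaks sit at a start in ME1, ACSL1, ACSL3 and ACACA, while those of ACLY and ACACB lie beyond the far end of the gene. A TCF3 peak covers the higher-coordinate end of FASN, which could not be judged as a start here.

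The enzymes that build the chain were examined first. FASN, the multifunctional synthase that assembles palmitate, lies on chromosome 17 from 82078338 to 82098236 (hg38). A TCF3 peak from 82096028 to 82098698 covered its higher-coordinate end, with its midpoint 873 bp inside the gene. Its score of 95, the authors' own value per peak, ranked 2667 among the 11390 TCF3 peaks held and was above 76.4% of them. At 2670 bp it was also broad, since the median TCF3 peak was 718 bp wide. FASN has no start in the promoter table, so whether the covered end is its start was not judged.

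The other peaks in the FASN window lay nearer to neighbouring genes, of which the window holds 7. TCF3 peaks with scores of 164 and 133 (ranks 727 and 1213) had midpoints 26111 and 46288 bp below the lower-coordinate end of FASN. The former was inside GPS1, a subunit gene of the COP9 signalosome, 329 bp from a GPS1 start. The latter was inside RAC3, a small GTPase gene. The ATOH8 peak of the window, with a score of 67 (rank 3461 of 4997), was 12602 bp below FASN and 68 bp from the start of DUS1L, a dihydrouridine synthase gene. It lay 13.5 kb from the nearest TCF3 peak. FASN was the only one of the 9 genes with both factors within 50 kb (28.1% of all protein-coding genes had both), and within 5 kb of its ends it had TCF3 alone. This count depended on the limit, as did the background. Within 10 kb 0 of 9 genes had both, against 14% of all protein-coding genes. Within 100 kb 5 of 9 had both (FASN, ACACA, ACACB, ACLY and ACSS2), against 41.6%.

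ACACA encodes acetyl-CoA carboxylase alpha, which makes the malonyl-CoA used by FASN. It spans 322 kb of chromosome 17 (37084992 to 37406836), the longest of the 9, and has 3 starts in the promoter table. A single TCF3 peak, from 37358709 to 37359093, lay inside it. That peak ended 3 bp downstream of the second start, at 37359096, with its midpoint 195 bp into the transcript. Its score of 44 was above 17.8% of the TCF3 peaks, and 1155 peaks in the list had that same score. The outermost start, at the end of the gene, had no listed peak of either factor. The nearest ATOH8 peak was 83.0 kb beyond the gene, with a score of 75.

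ACACB encodes the carboxylase isoform of the outer mitochondrial membrane, whose malonyl-CoA is known to restrain fatty acid oxidation. The gene (chromosome 12, 109111189 to 109268226) had no peak inside it. A TCF3 peak from 109287813 to 109288336 lay 19848 bp beyond its far end, inside FOXN4, a forkhead factor gene, and 10096 bp from an end of FOXN4. Its score of 36 was the second-lowest value in the list, held by 1542 peaks, with only 3 peaks below it. The nearest ATOH8 peak, with a score of 59, was 90.0 kb away. So the 2 carboxylase genes had no ATOH8 peak within 50 kb, and their TCF3 peaks were low in the list.

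The genes that supply acetyl-CoA and NADPH came next, and they held the peaks of ATOH8 nearest to any of the 9 genes. ME1, the cytosolic malic enzyme that turns malate into pyruvate and yields NADPH, lies on chromosome 6 (83210402 to 83431051, minus strand). An ATOH8 peak from 83430705 to 83431765 covered its single annotated start, with the midpoint 184 bp upstream. Its score of 159 ranked 539 of 4997, above 88.8% of the list, and at 1060 bp it was wider than the median ATOH8 peak of 709 bp. For comparison, SCD is the desaturase gene named in the title of the series. The ATOH8 peak inside SCD or within 50 kb of it had a score of 65 (rank 3559). Its distance from an SCD start was not measured, so only the scores are compared. ME1 had no TCF3 peak in its window: the nearest was 142 kb away, with a score of 70. The ATOH8 peak at ME1 was 363 kb from the nearest TCF3 midpoint.

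ACSS2, the cytosolic synthetase that makes acetyl-CoA from acetate, lies on chromosome 20 (34874989 to 34927959, plus strand). An ATOH8 peak from 34872663 to 34873331 had its midpoint 1992 bp upstream of its outermost start. The same midpoint was 141 bp from the start of GGT7, a gamma-glutamyltransferase family gene, so the peak was nearer to the neighbour. Its score of 63 (rank 3764) was above 22.8% of the ATOH8 list. The nearest TCF3 peak was 62.5 kb beyond the gene and outside the window, with a score of 70.

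ACLY, the ATP-citrate lyase that splits citrate into acetyl-CoA and oxaloacetate, lies on chromosome 17 (41866917 to 41930545, minus strand). The TCF3 peak in its window, from 41864645 to 41865356, was 1916 bp beyond the far end of ACLY and 53950 bp downstream of the nearest ACLY start. It lay inside KLHL11, an adaptor gene of ubiquitin ligases, 422 bp from the KLHL11 start, and had a score of 36. The nearest ATOH8 peak to ACLY, with a score of 112 (rank 1430), was 55.1 kb beyond the gene and so narrowly missed the window. Of the 3 supply genes, ME1 alone had a peak that touched its own promoter window.

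**Figure D2:**
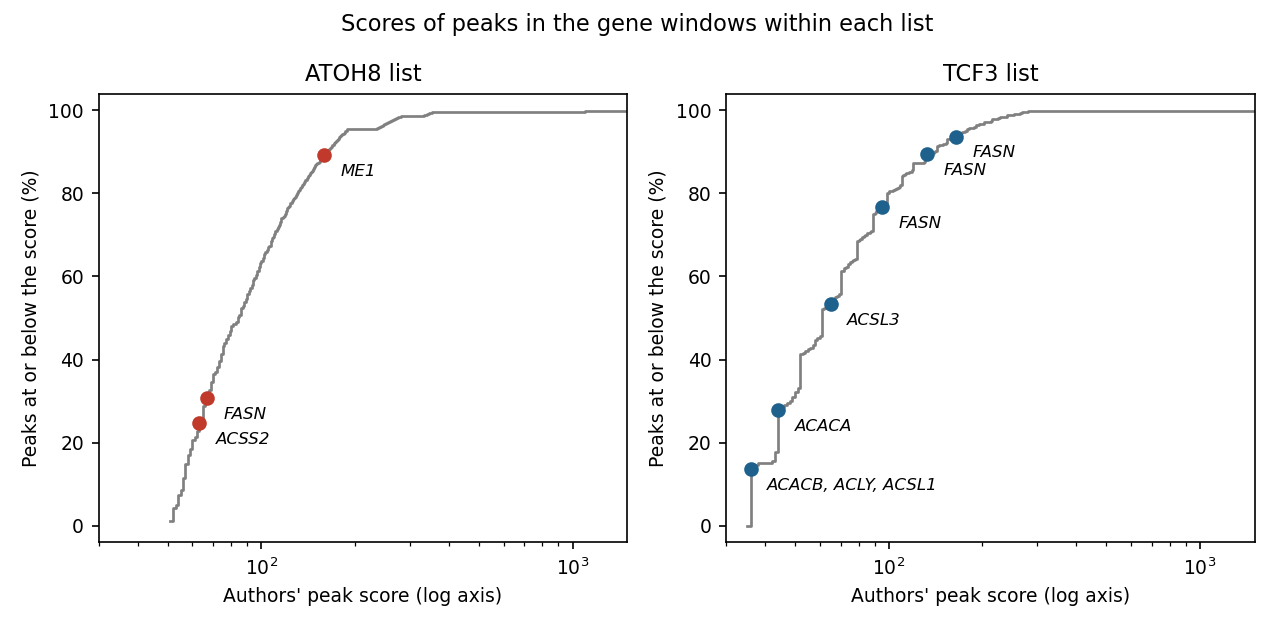
Share of each list's peaks (%) at or below a given authors' score (log axis, grey steps), with the peaks of the 9 genes marked on the curve of their own list. In the ATOH8 list ME1 is at 159 and FASN and ACSS2 are at 67 and 63, below the list median of 84. In the TCF3 list the 3 peaks of the FASN window, at 95 to 164, are higher than those of the other genes, at 36 to 65. Those at 133 and 164 lie inside the neighbouring genes RAC3 and GPS1.

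The activating enzymes were represented by ACSL1 and ACSL3, long-chain acyl-CoA synthetases. ACSL1 is known as the form that is abundant in liver, fat and muscle, and ACSL3 as a form found on the endoplasmic reticulum and lipid droplets that activates exogenous oleate. At ACSL1 (chromosome 4, 184755595 to 184826594, minus strand, 5 starts in the table) a TCF3 peak from 184825500 to 184826520 covered the start at 184825968, with the midpoint 42 bp upstream. Among the 7 peaks of genes with a start in the table this midpoint was the closest to a start of its gene, and its score of 36 was among the lowest in the list. At ACSL3 (chromosome 2, 222861036 to 222944639, plus strand) a TCF3 peak from 222861075 to 222861731 had its midpoint 367 bp downstream of the single start. It had a score of 65, above 53.0% of the TCF3 list.

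Both synthetase genes lay far from ATOH8 peaks. The nearest was 957 kb from ACSL1, with a score of 126, and 436 kb from ACSL3, with a score of 86. The 50 kb window of ACSL1 touches 1 other protein-coding gene and that of ACSL3 touches none.

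GPAM, the mitochondrial glycerol-3-phosphate acyltransferase that commits acyl-CoA to glycerolipids, was the only one of the 9 genes without a listed peak in its window (chromosome 10, 112149865 to 112227677). The nearest TCF3 peak, from 112349590 to 112350183 with a score of 89, was 122 kb away, and the same peak lay 24.2 kb from ACSL5, another long-chain acyl-CoA synthetase gene. The nearest ATOH8 peak was 725 kb away, with a score of 54. Since the lists were held in part and depth was not known, the lack of a peak at GPAM says only that none was listed.

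**Figure D3:**
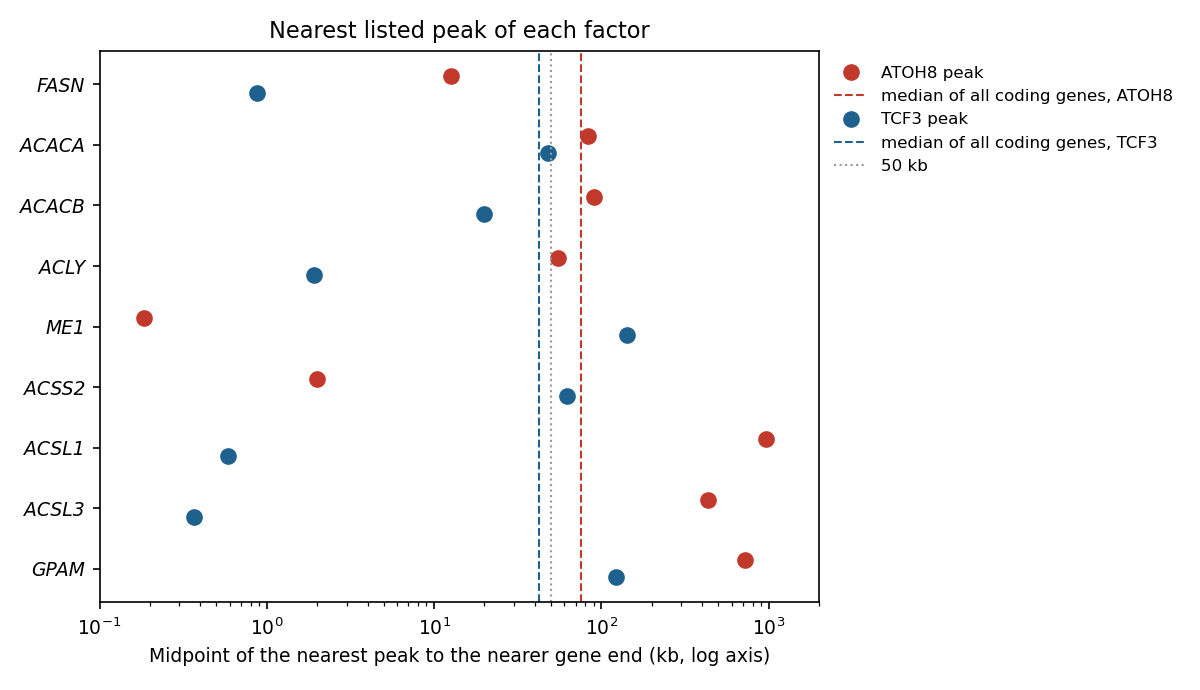
Distance in kb (log axis) from the nearer end of each gene to the midpoint of the nearest ATOH8 peak (red) and TCF3 peak (blue); dashed lines are the medians over all protein-coding genes and the dotted line is 50 kb. ME1 and ACSS2 have ATOH8 nearer than TCF3, and the other 7 genes have TCF3 nearer.

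Distances to the nearest peak were compared next. ATOH8 was nearer than TCF3 at ME1 (184 bp against 142 kb) and ACSS2 (1992 bp against 62.5 kb), and TCF3 was nearer at the other 7, as at 58% of all protein-coding genes. With as many TCF3 as ATOH8 peaks, TCF3 was nearer at 3 of 9 (FASN, ACSL3 and GPAM) and at 37.6% of all protein-coding genes. The median distance from a gene end to the nearest ATOH8 peak was 83.0 kb over the 9 genes (range 0.184 to 957 kb), against 75.2 kb over all protein-coding genes. For TCF3 it was 19.8 kb (range 0.367 to 142 kb), against 42.1 kb. The quartiles over all genes were 7.95 and 279 kb for ATOH8 and 2.48 and 163 kb for TCF3, so both medians of the 9 genes lay between the quartiles of all genes.

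The counts were then read against the background of all protein-coding genes. ATOH8 peaks were in the window of 3 of 9 genes (33.3%, Wilson 95% interval 12.1 to 64.6%), against the 43.6% of all protein-coding genes. TCF3 peaks were in the window of 6 of 9 (66.7%, 35.4 to 87.9%), against 53.7%. Both backgrounds lay inside the interval of the 9 genes, which covers only the counting of genes. The background was not matched for gene length, and the windows of the 9 genes ran from 120 kb (FASN) to 422 kb (ACACA). Within 5 kb of a gene end, ATOH8 was listed at ME1 and ACSS2 (2 of 9, background 22.7%), and TCF3 at FASN, ACLY, ACSL1 and ACSL3 (4 of 9, background 28.5%). Within 1 kb of an end ATOH8 was left at ME1 (1 of 9, background 17.6%), and TCF3 at FASN, ACSL1 and ACSL3 (3 of 9, background 20.3%). Of the 8 genes with a promoter window, a peak reached 1 for ATOH8 (background 16.6%) and 3 for TCF3 (background 16.2%). With a group of 9 genes, shares close to the background and shares well above it could not be told apart.

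**Figure D4:**
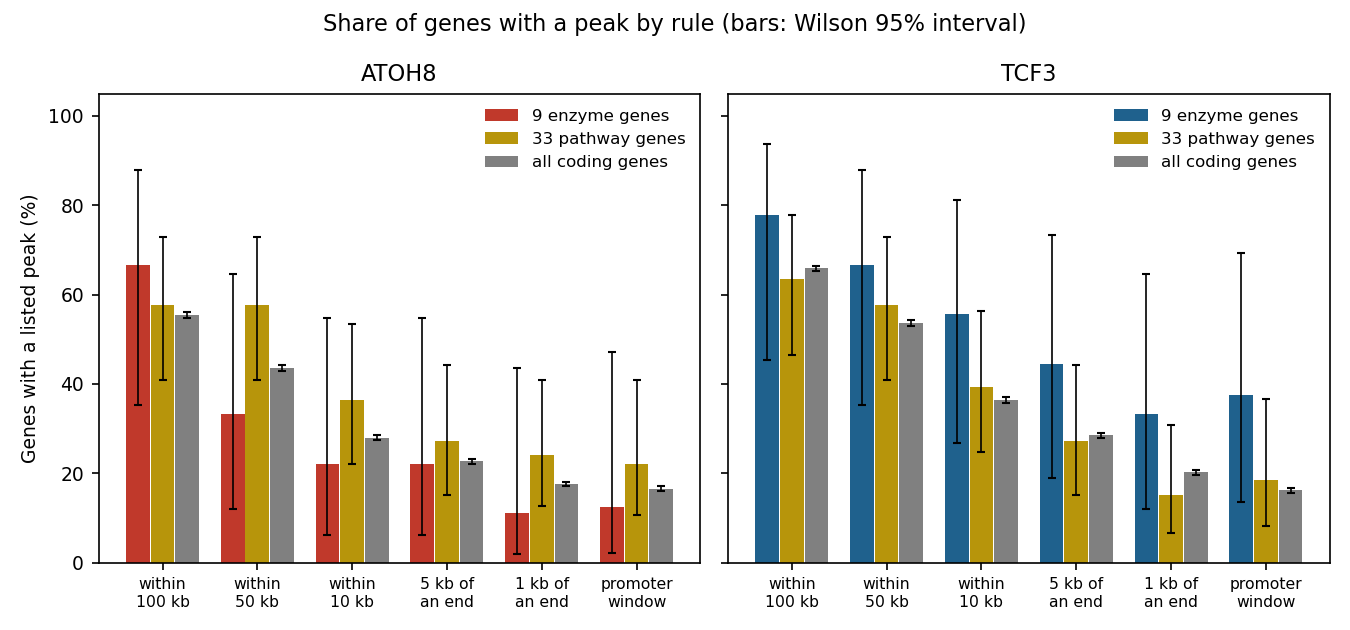
Percentage of genes with a listed peak under 6 rules of placement, for the 9 enzyme genes (coloured), 33 other pathway genes (yellow) and all protein-coding genes (grey), with Wilson 95% intervals that cover the counting of genes only. Under the promoter rule 8, 27 and 15812 genes had a promoter window. The intervals of the 9 genes include the share of all coding genes under every rule shown.

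Peak density, which rests on 3 and 8 peaks and has no interval, was below the background for both factors. For TCF3 the share of genes with a peak in the window was above it (66.7% against 53.7%). The 9 windows covered 1.97 Mb and held 1.52 ATOH8 peaks per Mb, against 2.55 per Mb over the windows of all protein-coding genes, and 4.06 TCF3 peaks per Mb against 4.64. Of the 3 ATOH8 peaks, 2 had a score below the list median of 84, and of the 8 TCF3 peaks 4 were below the list median of 61. The nearest gene end was that of the enzyme gene for 1 of 3 ATOH8 peaks and 3 of 8 TCF3 peaks, and that of a neighbour for the others. Of those others, the TCF3 peak in ACACA was nevertheless at an ACACA start. These shares were not counted over the windows of all genes, so they cannot be read as a result about the 9 genes.

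No peak was common to both lists. None of the 3 ATOH8 peaks and none of the 8 TCF3 peaks shared a base with the other factor's peaks, whereas over the windows of all protein-coding genes 29.4% of ATOH8 peaks and 16.1% of TCF3 peaks did. Counted by gene, 0 of 9 had an overlapping pair in the window, against a background of 15.9%, and the Wilson interval of 0 of 9 reaches 29.9%. The smallest distance between midpoints of the 2 factors at any of the 11 peaks was 8.47 kb, at the RAC3 peak in the FASN window.

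Around these 9 genes, 33 further genes of acyl-CoA activation, mitochondrial fatty acid synthesis, citrate and NADPH supply and glycerolipid assembly were counted as context. ATOH8 peaks were in the 50 kb window of 19 of 33 (57.6%, against 43.6% of all protein-coding genes) and TCF3 peaks of 19 of 33 (57.6%, against 53.7%). Within 5 kb of an end each factor was listed at 9 of 33 (27.3%), against 22.7% for ATOH8 and 28.5% for TCF3. An overlapping pair lay in 7 of 33 windows (21.2%, against 15.9%). The genes with both factors within 5 kb were ME2, the mitochondrial malic enzyme, SLC25A1, the mitochondrial citrate carrier, AGPAT2, a lysophosphatidate acyltransferase, and LPIN2, a phosphatidate phosphatase. At ME2 the ATOH8 peak (score 79, midpoint 228 bp from the gene end) overlapped the TCF3 peak (score 89, 190 bp). SLC25A1 had overlapping peaks with scores of 63 and 89, and AGPAT2 with 64 and 94. At LPIN2 the peaks (87 and 70) did not overlap and lay at opposite ends of the gene. ATOH8 was 228 bp from its higher-coordinate end and TCF3 2884 bp from its lower-coordinate end. Among the malic enzyme genes, ATOH8 alone was listed within 5 kb of an end of ME1, both factors at ME2 and TCF3 alone at ME3 (score 131). Within 10, 50 and 100 kb ME3 had both factors, like ME2.

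Among peaks within 5 kb of an end of these 33 genes, the highest ATOH8 score was 238 (rank 208), 649 bp from an end of AGPAT3, another lysophosphatidate acyltransferase gene. It was followed by LPIN2 (87), ME2 (79) and PGD (70), a dehydrogenase of the pentose phosphate pathway that yields NADPH. The highest TCF3 scores within 5 kb were at ME3 (131), DGAT2 (109), which makes triacylglycerol, AGPAT2 (94), and ME2 and SLC25A1 (both 89). Under the same 5 kb rule, the ATOH8 score of 159 at ME1 was above all of the 33 genes except AGPAT3, and the TCF3 score of 95 at FASN was below those of ME3 and DGAT2. The 50 kb windows of 8 of the 33 genes held neither factor (24.2%, against 30.8% of all protein-coding genes), among them ACSL4, a synthetase that prefers arachidonate, IDH1, the cytosolic NADP-dependent isocitrate dehydrogenase, and AGPAT1.

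The 50 kb limit decided several of these counts. The peak just inside it was the TCF3 peak at RAC3, 46.3 kb from FASN (score 133). Just outside it were TCF3 peaks 53.8 kb (score 65) and 55.2 kb (score 45) from ACLY, the ATOH8 peak 54.8 kb from FASN (score 65), the ATOH8 peak 55.1 kb from ACLY and a TCF3 peak 55.8 kb from FASN (score 58). With a limit of 100 kb, ATOH8 was listed at 6 of 9 genes, ACACA, ACACB and ACLY being added (background 55.5%), and TCF3 at 7 of 9, with ACSS2 added (background 65.9%).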

How the data were processed

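Peak lists of 1 ATOH8 and 1 TCF3 immunoprecipitation were used; neither input was analysed here. Each list gives chromosome, start, end and a score per peak. This deposited score was made by the authors; how it was defined, and the aligner, caller, threshold and role of the input, are not stated in these sources. The build is hg38, per the submitters' processing notes. Whether starts count from 0 or 1 is not given. Lists were matched to factors by name. They held 4997 and 11390 peaks, 4951 and 11330 of them on chromosomes 1 to 22 and X, and 3 and 5 lines without a peak. Both were held in part. ATOH8 scores jumped from 996 to 356, from 326 to 280 and from 232 to 189. TCF3 scores jumped from 887 to 280, from 129 to 120 and from 41 to 38. Peaks may be missing at each jump, so ranks and shares of a list are among the peaks held. Tied peaks took the best rank. Scores were compared only within a list. Depth was not known.

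Genes and promoter sequences came from RefSeq tables (GRCh38.p14). Overlap meant at least 1 shared bp. Intervals are Wilson 95% intervals for counting only. The gene group, the list of 33 pathway genes and the counting rules were chosen with earlier results of these data known. Named genes are the 9 genes, neighbours in which or nearer to which a peak lay, SCD, and, of the 33, those with both factors within 5 kb of an end and the 4 highest scores per factor. ACSL5, ACSL4, IDH1 and AGPAT1 were named after their values were seen. No test was run. The counting was tested on simulated data, with Python 3.11.15, numpy 2.4.6, pandas 2.3.3 and scipy 1.17.1; figures used matplotlib 3.10.9. Alternatives tried were windows of 10 and 100 kb, 5 and 1 kb around gene ends, any base of a peak, the higher-ranked 50% of peaks, no top 1%, equal list lengths, other overlap rules, peak edges and all annotated genes; promoter overlap and equal list lengths for the nearest peak were added after seeing the data.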

Additional observations from a re-analysis of the deposited data

How the results depend on the processing

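Counts of so few genes moved with placement and score. ATOH8 was listed at 1 gene (ME1) within 1 kb of an end, in promoter windows (chosen after seeing the data) or with the higher-ranked 50% of peaks, and at 6 within 100 kb. TCF3 was listed at 3 genes within 1 kb of an end and at 3 in promoter windows, at 2 (FASN and ACSL3) with the higher-ranked 50% of peaks, and at 1 (FASN) with as many TCF3 as ATOH8 peaks. At that setting, chosen for this count after seeing the data, TCF3 was nearer than ATOH8 at 3 genes in place of 7. Over all protein-coding genes it was nearer at 37.6% in place of 58%. Shares of all genes with a listed peak were not counted for the higher-ranked 50% or for equal list lengths. The lower counts at those settings therefore cannot be read as a result about the 9 genes. ATOH8 peaks numbered 10 within 100 kb and 1 with the higher-ranked 50%. TCF3 peaks numbered 14 within 100 kb, 5 within 10 kb and 4 with the higher-ranked 50%. The ATOH8 background over all annotated genes was 28.9%. Any base of a peak in place of its midpoint, and leaving out the top 1% of scores, gave the counts of 3 and 6 genes again. Overlapping pairs numbered 0 under the 3 other overlap settings (reciprocal overlap of 50%, midpoints within 200 bp, and the higher-ranked 50% of both lists). Peak edges in place of midpoints gave median distances of 82.2 kb (ATOH8) and 19.6 kb (TCF3). No paired analysis was possible because each group had 1 library. No other promoter window length could be tried. Precision is limited by 1 library per factor, by unknown depth and by lists held in part.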
